A study of Mus musculus with 8 samples.

Results

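Sphingosine-1-phosphate (S1P) signaling genes were examined in tumor-associated endothelial cells (TECs) of mice with and without a loss of 1 *Foxf1* allele in endothelium. The set held 9 genes of the 33641 gene symbols measured, chosen by name: the receptors *S1pr1*, *S1pr2* and *S1pr3*, the kinases *Sphk1* and *Sphk2*, the exporter *Spns2*, the degrading enzymes *Sgpl1* and *Sgpp1*, and the carrier *Apom*. All 9 were measured in all libraries, and all 9 passed the filter for testing, which asked for 4 of the 8 libraries to reach a TPM of 1. *S1pr3* reached a TPM of 1 in 7 libraries and *Apom* in 5. TPM, a relative transcript abundance, divides reads by transcript length and scales each library to the same total, so levels of different genes within a library can be compared.

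RNA-seq was performed on CD45-CD31+ cells sorted from Lewis lung carcinoma (LLC) tumors that were dissected from the lungs of 4 control and 4 endFoxf1+/- mice 21 days after the tumor cells were injected. LLC is a mouse lung cancer line of C57Bl/6 origin. In endFoxf1+/- mice, exon 1 of a floxed *Foxf1* allele was removed by Cre under the *Pdgfb* promoter, which tamoxifen activates (Pdgfb-iCreER; *Foxf1* fl/+), and the other allele was intact. Controls were described as littermates with the floxed allele or the Cre transgene alone, and for the tumor model also as wild-type C57Bl/6 mice. Mice were 6 to 8 weeks old at tamoxifen treatment and at injection, and the tumor cells carried an mCherry label. The labels give the genotype of each library and no batch. The deposited design names 4 mice per group, whereas 1 plot of these data in the study states fewer samples per group. Nothing else ties a library to an animal, and p-values measure the spread between these libraries. The control libraries are called C1 to C4 and the endFoxf1+/- libraries H1 to H4.

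S1P is a lipid messenger that cells make by phosphorylating sphingosine. Endothelial cells release it into blood and lymph, where it travels on apolipoprotein M and albumin and acts on a family of G protein-coupled receptors. In endothelium, S1PR1 acts through Gi and Rac to strengthen cell junctions and limit sprouting, whereas S1PR2 and S1PR3 also couple to other G proteins. Inside cells the lipid is removed irreversibly by S1P lyase and reversibly by phosphatases. *S1pr1* has been described as a target of FOXF1 in lung endothelium, so the genotypes address whether the pathway's transcripts follow the loss of a *Foxf1* allele.

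The libraries did not carry like amounts of endothelial transcript. The geometric mean TPM of 20 endothelial markers was 83.5% to 108% of the control mean in C1 to C4, 103% in H1 and 106% in H2, but 55.9% in H4 and 5.36% in H3, where all 20 markers had their lowest level. The median correlation with the other libraries was 0.795 for H3, 0.892 for H4 and 0.958 to 0.968 for the remaining 6. All 8 myeloid markers had their highest level in H3, with a summed TPM of 7895 against 1445 to 5041 in controls, and the 6 fibroblast markers summed to 1311 in H3 and 106 to 290 in the other endFoxf1+/- libraries, against 34.8 to 91.9 in controls. In bulk RNA, fewer endothelial cells and less RNA per endothelial cell cannot be told apart. *Foxf1* itself was at TPM of 213, 285, 296 and 331 in C1 to C4 and 177, 203, 14 and 105 in H1 to H4. Every endFoxf1+/- library lay below every control, as for 2.31% of tested genes (log2 fold change -1.68 ± 0.72 (SE), exact two-sided permutation p = 0.0286, adjusted limma p = 0.790). Without H3 the log2 fold change of *Foxf1* was -0.83 ± 0.25 (SE), with an exact permutation p of 0.0571 and an adjusted limma p of 0.580. Relative to the 20 endothelial markers the difference in *Foxf1* was -0.47 ± 0.63 (SE) with H3 and -0.60 ± 0.20 (SE) without it (exact permutation p = 0.0571 for both). Differences of the members are therefore given with and without H3.

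Promoter sequence is shown for the 2 members whose groups separated in the deposited TPM or relative to 20 endothelial markers, *S1pr3* and *Sgpl1*, as the 250 bases before the RefSeq start on GRCm38.p6. *S1pr3* lies on chromosome 13 (GENCODE gene chr13:51408639-51422797, + strand) and its upstream window is chr13:51408368-51408617 on the + strand. *Sgpl1* lies on chromosome 10 (chr10:61098642-61147703, - strand) and its window is chr10:61147685-61147934 on the - strand. Capitals mark CpG dinucleotides, the sites of DNA methylation, and both sequences read 5′ to 3′.
S1pr3: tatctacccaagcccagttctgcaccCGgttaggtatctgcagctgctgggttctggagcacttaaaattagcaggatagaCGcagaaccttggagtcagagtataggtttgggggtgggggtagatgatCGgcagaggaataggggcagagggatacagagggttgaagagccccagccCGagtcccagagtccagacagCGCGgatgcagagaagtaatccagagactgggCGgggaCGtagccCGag
Sgpl1: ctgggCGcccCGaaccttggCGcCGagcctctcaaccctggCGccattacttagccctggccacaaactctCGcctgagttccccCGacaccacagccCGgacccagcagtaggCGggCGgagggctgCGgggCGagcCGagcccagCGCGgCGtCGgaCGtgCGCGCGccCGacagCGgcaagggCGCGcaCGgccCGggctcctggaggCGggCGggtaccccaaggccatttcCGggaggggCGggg

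The *S1pr3* window held 9 CpG with a GC content of 56.4%, near the median of 6 CpG over all 32851 RefSeq promoter entries. The *Sgpl1* window held 31 CpG with a GC content of 74.8%, and 5.19% of all entries held as many or more. The forkhead core TAAACA was searched on both strands (reverse complement TGTTTA) in the windows of the 8 members that have a RefSeq entry. Only *Sphk1* held it, in 2 of its 5 start sites that share the same stretch. The stretch is printed because it is the single match, with the letters of the motif in capitals.
Sphk1: aactatgcgtctTGTTTAtctccaccgaag

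The match began 127 bases before one *Sphk1* start and 134 before the other (chr11:116532194-116532443 and chr11:116532201-116532450, both + strand). Across all entries 12% held the motif, and a match describes these letters alone.

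None of the 9 members differed between control and endFoxf1+/- TECs at an adjusted p under 0.05, the level at which 0.0% of the 14964 tested genes were called (limma on log2(TPM + 1), Benjamini-Hochberg adjustment over all tested genes). At an unadjusted p under 0.05, 0 of the 9 members and 836 tested genes (5.59%) were called. The median log2 fold change was 0.00 over the members, 5 of which were higher and 4 lower in endFoxf1+/- TECs, and -0.17 over all tested genes, of which 4782 were higher and 10182 lower. A single member, *S1pr3*, had all 4 endFoxf1+/- libraries below all 4 controls, which held for 2.31% of tested genes, and no member had all 4 above, which held for 2.73%. Exact permutation tests are two-sided, over 70 assignments with 0.0286 as the smallest possible p where all 8 libraries entered, and over fewer assignments where a library was left out. They were run for each of the 9 members by level and relative to the endothelial markers, under the alternative settings, and for the shares and further genes named below.

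**Figure D1:**
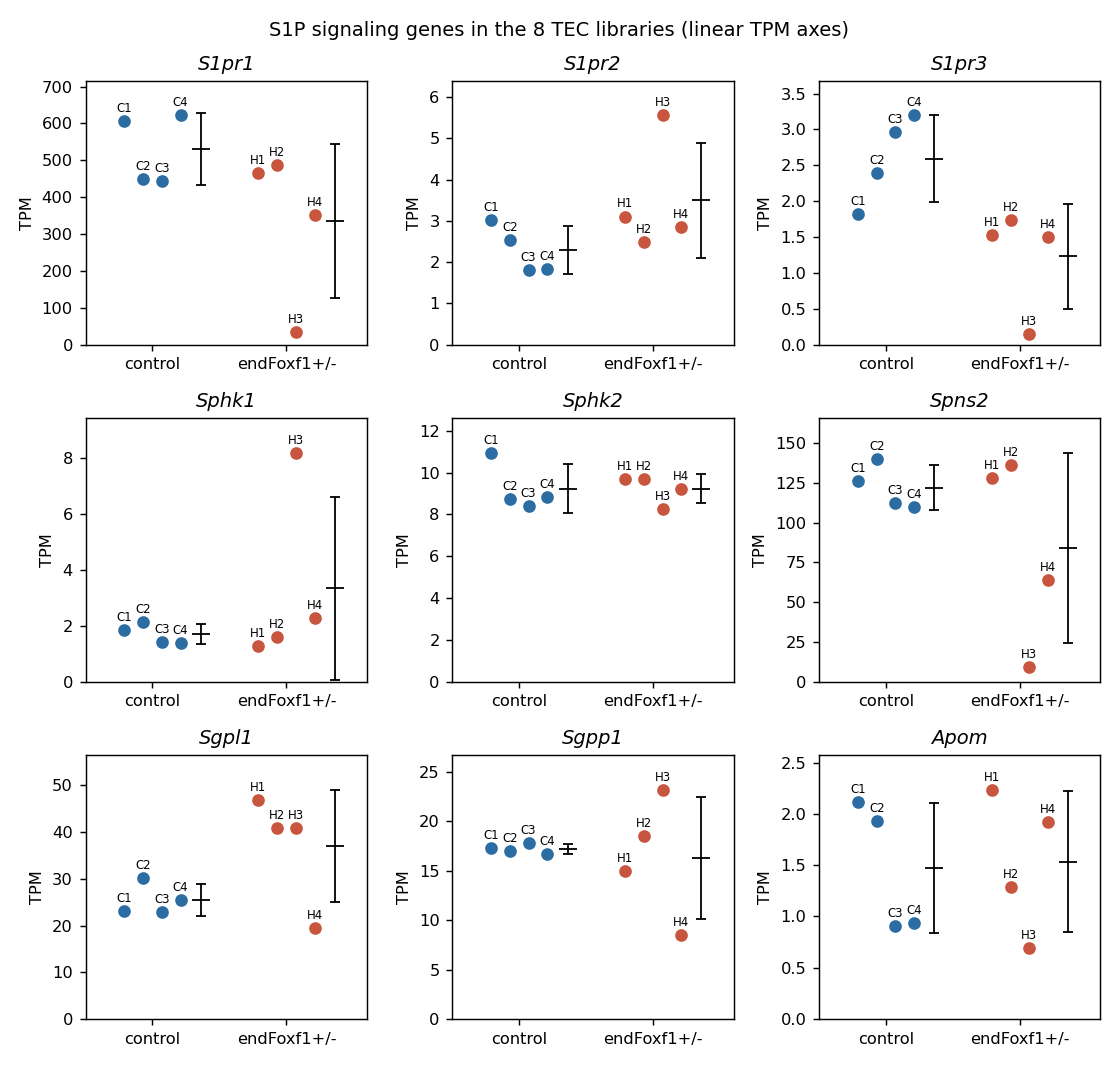
TPM of the 9 S1P signaling genes in each of the 8 TEC libraries, on linear axes that start at 0; points are libraries, and the horizontal bar with whiskers is the group mean ± SD (n = 4). H3 is the lowest point for *S1pr1*, *S1pr3*, *Sphk2*, *Spns2* and *Apom* and the highest for *S1pr2*, *Sphk1* and *Sgpp1*, and only *S1pr3* shows no overlap between the groups in these unscaled TPM.

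Among the receptors, *S1pr1* (chr3:115710433-115715072, - strand), the main S1P receptor of endothelium, was by far the most abundant. Its TPM was 606, 450, 443 and 622 in C1 to C4 and 467, 487, 33.7 and 352 in H1 to H4. H1 and H2 lay within the control range, while H3 and H4 lay below it. The means were 530 ± 96.8 (SD, n = 4) and 335 ± 209 (SD, n = 4), a log2 fold change of -1.19 ± 0.76 (SE) with an adjusted limma p of 0.790 and an exact permutation p of 0.171. H3 carried most of the difference, and without it the log2 fold change was -0.28 ± 0.20 (SE; exact permutation p = 0.286). When libraries were scaled by the median ratio of their genes to each gene's geometric mean, *S1pr1* was at 513, 422, 438 and 590 in C1 to C4 and 385, 408, 57.1 and 387 in H1 to H4. On this scaling every endFoxf1+/- library lay below every control, as for 3.09% of tested genes, and the log2 fold change was -0.996 ± 0.60 (SE; adjusted limma p = 0.676, exact permutation p = 0.0286). The *S1pr1* level in H3 was 6.35% of the control mean, beside 5.36% for the endothelial markers, and that in H4 was 66.3%, beside 55.9%.

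*S1pr2* (chr9:20962361-20976781, - strand), a receptor that opens endothelial junctions, was low. Its TPM was 3.01, 2.54, 1.81 and 1.83 in controls and 3.10, 2.50, 5.55 and 2.84 in endFoxf1+/- libraries. Only H1 and H3 exceeded the controls, H1 by little. The log2 fold change was 0.42 ± 0.29 (SE; adjusted limma p = 0.790, exact permutation p = 0.143), and 0.22 without H3. H3, in which *S1pr2* was 242% of the control mean, was also the library with the highest myeloid and fibroblast sums, whose part in this value was not tested.

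*S1pr3* (chr13:51408639-51422797, + strand), a receptor found on endothelial and mural cells, was the one member whose groups did not overlap in the TPM as deposited. Its TPM was 1.83, 2.39, 2.96 and 3.19 in controls and 1.53, 1.73, 0.151 and 1.51 in endFoxf1+/- libraries. All 4 endFoxf1+/- libraries lay below the lowest control, but H2 was close to C1. The means were 2.59 ± 0.612 (SD, n = 4) and 1.23 ± 0.727 (SD, n = 4), so that the endFoxf1+/- mean was 0.474 of the control mean. The log2 fold change was -0.75 ± 0.34 (SE), with an exact permutation p of 0.0286 and an adjusted limma p of 0.790. Without H3 the other 3 libraries remained below all controls, with a log2 fold change of -0.46 ± 0.23 (SE), an exact permutation p of 0.0571 and an adjusted limma p of 0.714. With median ratio scaling the separation was lost (exact permutation p = 0.0571), since H4 at 1.65 lay above C1 at 1.55, so which receptor separated the groups depended on the scaling.

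Beside *S1pr3*, 6 of 8 pericyte and smooth muscle markers had a lower mean TPM in endFoxf1+/- libraries. On the log scale, a different measure, 10182 of the 14964 tested genes were lower. The 8 markers summed to a TPM of 64.9 to 94.4 in controls and 33.2 to 78.8 in endFoxf1+/- libraries, and 2 of the 8, *Rgs5* and *Myh11*, were below all controls in every endFoxf1+/- library, as were 2.31% of all tested genes. *Rgs5*, a pericyte marker, was at 10.7 to 18.9 in controls and 0.602 to 6.66 in endFoxf1+/- libraries. None of the 8 was at 0 in any library, and their part in the *S1pr3* values was not tested.

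*S1pr1* supplied nearly all transcripts of the 3 receptors. Its share of their summed TPM was 99.2%, 98.9%, 98.9% and 99.2% in C1 to C4, and 99.0%, 99.1%, 85.5% and 98.8% in H1 to H4. Outside H3, the shares of both groups therefore lay within 1 percentage point of each other. The mean difference was -3.45 percentage points (exact permutation p = 0.314) with H3 and -0.0866 without it (exact permutation p = 0.6). In H3, *S1pr2* made up 14.1% of the 3 receptors, against 0.292% to 0.557% in controls, whereas the *S1pr3* share there, 0.383%, was inside the control range of 0.299% to 0.661%.

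Of the kinases that make S1P, *Sphk1* (chr11:116530925-116536674, + strand), the inducible cytosolic enzyme, was the less abundant. Its TPM was 1.85, 2.14, 1.41 and 1.40 in controls and 1.30, 1.59, 8.2 and 2.28 in endFoxf1+/- libraries. H3 stood at 482% of the control mean, H4 just above the controls, H2 within their range and H1 just below it. The log2 fold change of 0.45 ± 0.43 (SE; adjusted limma p = 0.802, exact permutation p = 0.514) fell to 0.01 without H3. The high myeloid and fibroblast sums of H3 stood beside this value too, and their part in it was not tested.

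*Sphk2* (chr7:45709467-45718002, - strand), the kinase found mainly in the nucleus and on inner membranes, showed the least spread over the 8 libraries. Its TPM was 11.0, 8.75, 8.42 and 8.81 in controls and 9.71, 9.72, 8.24 and 9.22 in endFoxf1+/- libraries, and H3 was only just below the lowest control. The means were 9.24 ± 1.16 (SD, n = 4) and 9.22 ± 0.695 (SD, n = 4), and the log2 fold change was 0.00 ± 0.22 (SE; exact permutation p = 1), or 0.05 without H3. *Sphk2* made up 80.3% to 86.3% of the transcripts of both kinases in controls, 80.2% to 88.2% in H1, H2 and H4, and 50.1% in H3.

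*Spns2* (chr11:72451638-72489904, - strand), the transporter that releases S1P from endothelial cells, was the second most abundant member. Its TPM was 126, 140, 112 and 110 in controls and 128, 136, 9.22 and 63.7 in endFoxf1+/- libraries. As for *S1pr1*, H1 and H2 lay within the control range and H3 and H4 below it. The means were 122 ± 14.1 (SD, n = 4) and 84.3 ± 59.7 (SD, n = 4), a log2 fold change of -1.06 ± 0.72 (SE; adjusted limma p = 0.790, exact permutation p = 0.343), and the value without H3 was -0.22 ± 0.26 (SE; exact permutation p = 0.714). H3 held 7.56% and H4 52.3% of the control mean of *Spns2*.

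Of the enzymes that remove S1P, *Sgpl1*, the lyase that cleaves it irreversibly, was higher in 3 of 4 endFoxf1+/- libraries than in any control. Its TPM was 23.2, 30.2, 22.9 and 25.5 in controls and 47.0, 40.8, 40.9 and 19.6 in endFoxf1+/- libraries, so that H4 alone lay below the controls. The means were 25.4 ± 3.39 (SD, n = 4) and 37.1 ± 12 (SD, n = 4), a log2 fold change of 0.46 ± 0.29 (SE; adjusted limma p = 0.790, exact permutation p = 0.143). This value was 0.39 without H3 and 0.74 without H4. Since H4 was the only endFoxf1+/- library not above all controls, leaving it out separates the groups by construction. The value without H4 is therefore given as an effect size only.

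*Sgpp1* (chr12:75714249-75735729, - strand), a phosphatase that returns S1P to sphingosine, had the tightest control values of the set. Its TPM was 17.3, 17.0, 17.8 and 16.7 in controls, a coefficient of variation of 2.79%, and 15, 18.5, 23.2 and 8.46 in endFoxf1+/- libraries. H1 and H4 were below all controls and H2 and H3 above, and the log2 fold change was -0.15 ± 0.30 (SE; exact permutation p = 0.714). Without H4 its sign turned, to 0.11, and without H3 it was -0.34.

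*Apom* (chr17:35128997-35132050, - strand), the plasma carrier of S1P, which is made mainly in liver and kidney, was near the lower limit of the tested genes. Its TPM was 2.11, 1.93, 0.909 and 0.939 in controls and 2.24, 1.29, 0.691 and 1.92 in endFoxf1+/- libraries. Both groups spanned nearly the same range, with a log2 fold change of 0.03 ± 0.32 (SE; exact permutation p = 0.943), or 0.21 without H3.

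In controls the mean TPM, levels per length, ran in the order *S1pr1* (530), *Spns2* (122), *Sgpl1* (25.4), *Sgpp1* (17.2), *Sphk2* (9.24), *S1pr3* (2.59), *S1pr2* (2.30), *Sphk1* (1.70) and *Apom* (1.47). Each of the first 5 was above the next in all 4 controls with no overlap of their ranges, and the last 4 were not separated from each other in this order. *S1pr1* ranked 241 among the 14964 tested genes by control mean, the 98.4th percentile, and *Spns2* ranked 1127. The receptor and the exporter thus stood well above the enzymes of S1P metabolism. In endFoxf1+/- libraries *S1pr1* was above *Spns2* in all 4, and *Spns2* above *Sgpl1* in 3, the exception being H3.

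Levels relative to endothelial transcripts were compared next, as log2(TPM + 1) of a gene minus the mean of the 20 endothelial markers in the same library. On this scale the median difference of all tested genes was 1.03, and 0.24 without H3, since the markers are low in H3 and H4, and a member's difference is read against these shifts. *S1pr1* was at 0.52, 0.12, 0.41 and 0.53 in controls and 0.19, 0.20, 0.59 and 0.65 in endFoxf1+/- libraries. The groups overlapped throughout, and the difference was 0.01 ± 0.63 (SE; exact permutation p = 1), or -0.05 ± 0.18 (SE) without H3. While the TPM of *S1pr1* spanned an 18.5-fold range over the 8 libraries, its relative value spanned 0.53 log2 units, a range that 40 tested genes (0.267%) undercut. *Pecam1*, itself 1 of the 20 markers, spanned 0.49 log2 units (undercut by 35 genes), and *Foxf1* 1.03 (218 genes, 1.46%). Genes of low TPM cannot have a narrow range on this scale, since the marker mean is low in H3, which limits this background.

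**Figure D2:**
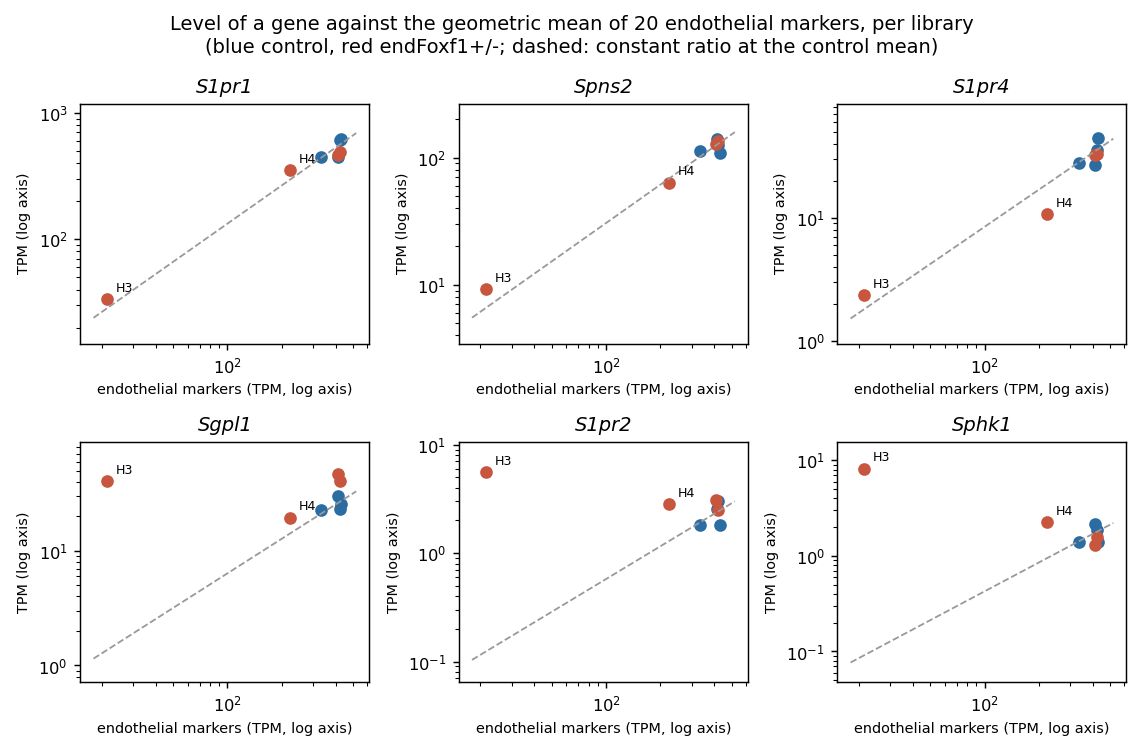
TPM of 6 S1P genes against the geometric mean TPM of 20 endothelial markers in each library, on log axes; blue points are controls, red points endFoxf1+/- libraries, and the dashed line is a constant ratio at the control mean. In H3 and H4, *S1pr1* and *Spns2* stay near the line, whereas *Sgpl1*, *S1pr2* and *Sphk1* lie far above it in H3.

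*Spns2* also kept a narrow relative range. Its relative value was -1.74, -1.55, -1.57 and -1.96 in controls and -1.67, -1.63, -1.17 and -1.79 in endFoxf1+/- libraries, with H3 alone above the controls. The difference was 0.14 ± 0.63 (SE; exact permutation p = 0.514), and 0.01 ± 0.16 (SE) without H3. The range of 0.79 log2 units was undercut by 124 tested genes (0.83%), on the same limited background.

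*Sgpl1* was the one member that separated the groups relative to the 20 endothelial markers. Its relative value was -4.13, -3.73, -3.81 and -4.03 in controls and -3.10, -3.34, 0.87 and -3.45 in endFoxf1+/- libraries. Every endFoxf1+/- library lay above every control, H4 included, whose TPM had been the lowest of all. The difference was 1.67 ± 0.88 (SE) with an exact permutation p of 0.0286 and an adjusted limma p of 0.471. Without H3 it was 0.63 ± 0.19 (SE), a 1.54-fold higher level, with an exact permutation p of 0.0286 and an adjusted limma p of 0.552. Against *Pecam1* alone, or against a second list of 10 endothelial markers, the groups overlapped (difference 1.51 and 1.45, exact permutation p = 0.0857 for both).

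The background for this separation was wide. Among all tested genes 10.5% had all 4 endFoxf1+/- libraries above all controls on the relative scale, against 1 of 9 members, and without H3 the share was again 10.5% (1551 genes), against the same single member. At an unadjusted p under 0.05 on this scale, 2.45% of tested genes and 0 of 9 members were called, and without H3 8.42% and 1 of 9, *Sgpl1* with a p of 0.00852. These shares are near the background and are no result about the set.

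The remaining 6 members overlapped between the groups on the relative scale. In H3 the marker mean was 4.52 log2 units, so a gene at a TPM of 0 would lie that far below it, above the controls of *S1pr2*, *S1pr3*, *Sphk1*, *Sphk2* and *Apom*, and the place of H3 on this scale says little about genes of low TPM. Without H3 the 6 differences ran from -0.22 for *S1pr3* to 0.46 for *S1pr2*, around the median of 0.24 for all tested genes. As a share of its control mean TPM, *S1pr3* was at 5.81% in H3 and 58.0% in H4, beside 5.36% and 55.9% for the endothelial markers, whereas H1 and H2, with markers at 103% and 106%, had *S1pr3* TPM of 1.53 and 1.73 against a control mean of 2.59.

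**Figure D3:**
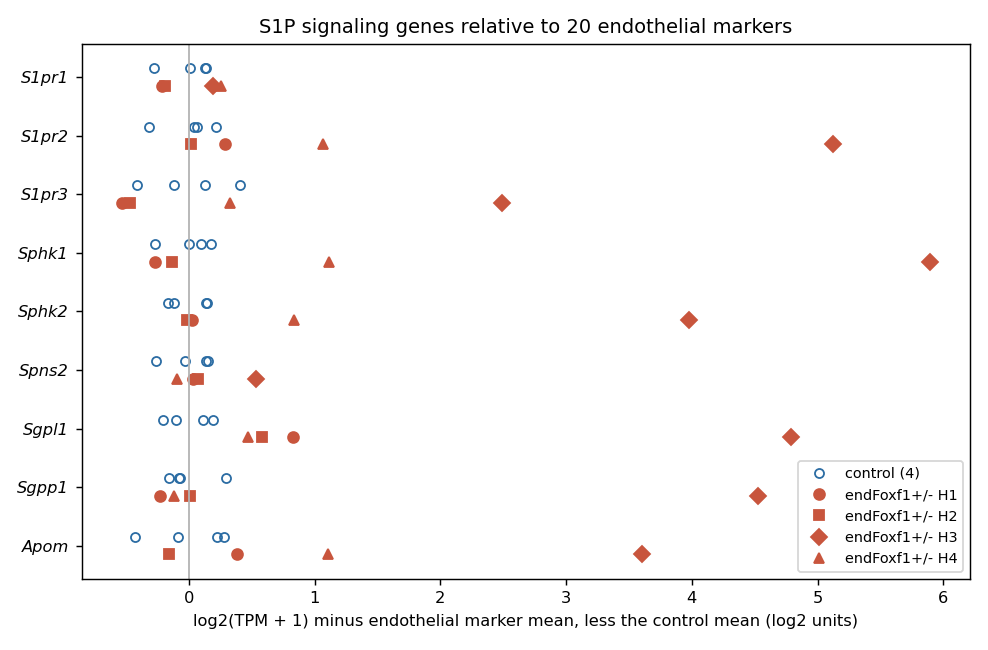
Level of each S1P gene relative to the 20 endothelial markers, less the control mean of that gene, in log2 units; open circles are the 4 controls and red symbols the 4 endFoxf1+/- libraries. *S1pr1* and *Spns2* stay within 1 log2 unit of the control mean in all libraries, H3 (diamonds) lies over 2 units above it for the other 7 genes, and for *Sgpl1* all red symbols lie right of all circles. Through the pseudocount of 1, a TPM of 0 in H3 would itself lie over 2 units above the control mean for *S1pr2*, *S1pr3* (TPM 0.151 in H3), *Sphk1* and *Apom* (TPM 0.691 in H3).

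Genes whose log2(TPM + 1) followed a member most closely were sought among all tested genes, as a description over libraries that share their endothelial content. Over the 8 libraries *S1pr1* was most like *Gpr146* (r = 0.998), *Mertk* (r = 0.998), *Tspan8* (r = 0.997), *Ctnna1* (r = 0.997) and *Smarca2* (r = 0.997), and its r with *Pecam1*, which encodes the CD31 used for sorting, was 0.994. Without H3 the 5 nearest genes were *Coa7*, *Rgs12*, *Osr1*, *Ampd3* and *Ccnd3* (r = 0.980 to 0.994 over 7 libraries), and none of them was among the 5 nearest over 8 libraries. *Spns2* was nearest to *Myo10*, *Egfl7* and *Clec2d* over 8 libraries (r = 0.998 to 0.999), and to *Lrrc74b*, *Zfp661* and *Trim37* without H3.

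For *S1pr3*, 1 gene headed both lists, *Olfml2a* (r = 0.995 over 8 libraries and 0.988 without H3), followed by *Pcdhac2* and *Fam76a* over 8 libraries and *Ednrb* and *Fam49a* without H3. The r of *S1pr3* with *Foxf1* was 0.967 over 8 libraries and 0.871 without H3. That of *S1pr1* was 0.960 and 0.636, of *Spns2* 0.963 and 0.657, of *S1pr2* -0.921 and -0.705, and of *Sphk1* -0.941 and -0.453. Outside the set, the endothelial marker *Pecam1* had 0.953 and 0.533, and the receptor *S1pr4* 0.955 and 0.774. These r pool both genotypes, which differ in *Foxf1* by design, and were not computed for all tested genes. The other members changed sign with H3 left out, from -0.22 to 0.83 for *Sgpp1*, 0.32 to -0.38 for *Sphk2*, -0.35 to 0.06 for *Sgpl1* and 0.37 to -0.59 for *Apom*. For the other 6 members the nearest genes over 8 libraries, at r = 0.945 to 0.993, were *Plk4* for *S1pr2*, *Rpl34*, *Rps19* and *Gpc6* for *Sphk1*, *Wars2*, *Gpbp1* and *Slc25a37* for *Sphk2*, *Exoc3l4*, *Ube2t* and *Atp6v0e* for *Sgpl1*, *Use1*, *Sh3bgrl3* and *2310009B15Rik* for *Sgpp1*, and *Trim33*, *Astn1* and *Krt35* for *Apom*. Without H3 (r = 0.955 to 0.994), *Plk4* for *S1pr2* and *Gpbp1* for *Sphk2* stayed among the first 3, and the nearest genes were otherwise *Nars2* and *Adamts1* for *S1pr2*, *Hipk1*, *Mink1* and *Ska3* for *Sphk1*, *Jade1* and *Ccnb2-ps* for *Sphk2*, *Mfsd1*, *Plag1* and *Tusc3* for *Sgpl1*, *Bola1*, *Tmem259* and *Apeh* for *Sgpp1*, and *Cntf*, *Adamts1* and *S1pr2* for *Apom*.

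Further S1P genes outside the set behaved in different ways, and of the 6 tested none had an adjusted p under 0.05. *S1pr4*, a receptor best known from blood cells, was at a TPM of 35.5, 26.8, 27.7 and 44.4 in controls and 32.6, 32.9, 2.36 and 10.6 in endFoxf1+/- libraries, and made up 5.49% to 6.61% of the 5 receptors in controls and 2.90% to 6.46% in endFoxf1+/- libraries. *S1pr5*, known from natural killer cells and brain, reached at most 0.802 in any library and was not tested. Like the endothelial markers, *S1pr4* was low in H3 and H4.

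*Plpp2*, 1 of 3 membrane phosphatases that dephosphorylate S1P and other lipid phosphates outside the cell, was the only one of the 6 with all endFoxf1+/- libraries above all controls, against 2.73% of all tested genes. Its TPM was 6.86, 7.58, 7.22 and 8.26 in controls and 14.6, 11.3, 18.6 and 12.8 in endFoxf1+/- libraries, a log2 fold change of 0.83 ± 0.24 (SE; exact permutation p = 0.0286, adjusted limma p = 0.790), and 0.71 without H3. *Plpp1* was at 400, 410, 344 and 462 in controls and 536, 545, 33.6 and 194 in endFoxf1+/- libraries, so that H1 and H2 lay above and H3 and H4 below all controls. *Plpp3*, which clears lipid phosphates in vessels, was at 32.3 to 57.4 in controls and 70.1, 57.3, 4.70 and 53.7 in endFoxf1+/- libraries, and relative to the endothelial markers all 4 lay above the controls (difference 0.80, exact permutation p = 0.0286, adjusted limma p = 0.471), as for 10.5% of tested genes, whose median difference was 1.03.

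*Mfsd2b*, the S1P exporter of red cells and platelets, was at 12.6, 18.6, 17.2 and 15.8 in controls and 8.52, 8.52, 3.06 and 15.6 in endFoxf1+/- libraries, with H4 inside the control range (log2 fold change -0.93 ± 0.40 (SE), exact permutation p = 0.0571, adjusted limma p = 0.790, and -0.56 without H3). Beside it, 5 of 5 platelet markers had a lower mean TPM in endFoxf1+/- libraries, while on the log scale 10182 of the 14964 tested genes were lower. The 5 markers summed to a TPM of 735 to 1569 in controls and 341 to 837 in endFoxf1+/- libraries. Of the 5, 3 were below all controls in every endFoxf1+/- library, as were 2.31% of all tested genes, and their part in the *Mfsd2b* values was not tested. *Sgpp2*, the second S1P phosphatase, varied from 3.47 to 10.9 in controls and from 0.647 to 13.5 in endFoxf1+/- libraries.

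Among 27 tested enzymes of ceramide and sphingoid base metabolism, which supply the sphingosine for S1P, 4 were higher and 23 lower, with a median log2 fold change of -0.15 against -0.17 for all tested genes. None passed an adjusted p under 0.05, and without H3 the list split into 13 higher and 14 lower with a median of -0.01. *Cers6*, a synthase of C16 ceramide, was the only one of the 27 above all controls in every endFoxf1+/- library, against 2.73% of all tested genes, with a TPM of 1.84, 1.98, 2.17 and 1.76 in controls and 3.78, 2.46, 23.2 and 13 in endFoxf1+/- libraries (log2 fold change 1.56 ± 0.57 (SE), exact permutation p = 0.0286, adjusted limma p = 0.790, and 1.07 without H3). H3 and H4, the libraries with the least endothelial transcript, were the highest. *Ormdl1*, a brake on the first step of sphingolipid synthesis, had a log2 fold change of 0.30, *Cers4*, another ceramide synthase, -1.20 (-0.44 without H3), and *Smpd1*, the acid sphingomyelinase, -0.73 (-0.28 without H3).

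Among 22 tested G proteins and effectors of the receptors, 4 were higher and 18 lower, with a median log2 fold change of -0.49, against -0.17 for all tested genes, of which 10182 of 14964 were lower. None passed an adjusted p under 0.05, and without H3 there were 10 higher and 12 lower with a median of -0.04 against 0.01 for all tested genes. *Plcb2*, a phospholipase C that Gq and G beta-gamma activate, was at a TPM of 7.0, 9.15, 8.78 and 9.55 in controls and 3.90, 7.18, 4.83 and 0.981 in endFoxf1+/- libraries, a log2 fold change of -1.04 ± 0.42 (SE; exact permutation p = 0.0571, adjusted limma p = 0.790). It was the one effector of 22 with an unadjusted p under 0.05, a share below the 5.59% of all tested genes, and H2 overlapped with C1. *Tiam1*, a Rac activator downstream of S1PR1, had a log2 fold change of -0.97 (-0.47 without H3), and *Gnai3*, 1 of 3 Gi alpha subunits in the list, and *Grk2*, the kinase that desensitizes S1PR1, had 0.17 and 0.08 (0.21 and 0.24 without H3). The other Gi alpha subunits, *Gnai1* and *Gnai2*, named after their values were seen, had -0.96 and -0.42 (-0.26 and -0.05 without H3), and *Gnai2* was the most abundant of the 3, with a control mean TPM of 481 against 69.3 for *Gnai3*.

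**Figure D4:**
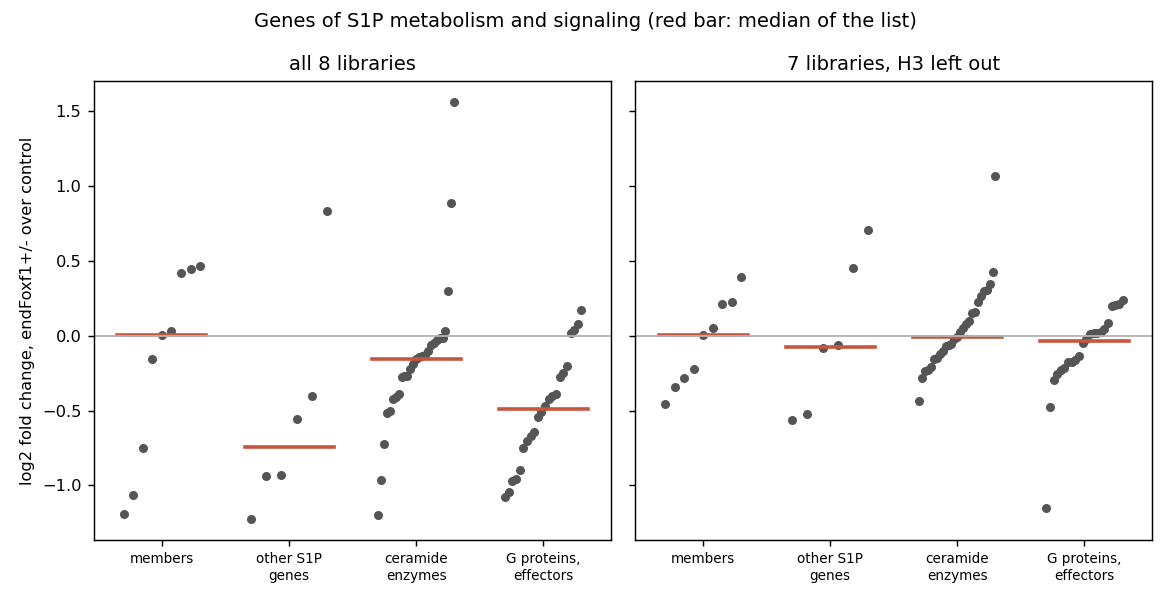
Log2 fold change (endFoxf1+/- over control) of every tested gene of 4 lists of S1P genes, over all 8 libraries (left) and without H3 (right); each point is a gene and the red bar is the median of its list. The medians of the further S1P genes and of the G proteins and effectors move to near 0 when H3 is left out, while that of the 9 members is 0.00 or 0.01 in both panels.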

How the data were processed

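Sorted CD45-CD31+ TECs of 4 control and 4 endFoxf1+/- mice were profiled by RNA-seq, with libraries prepared by a tagmentation kit that does not mark strand. The authors deposited TPM per gene symbol for each library. The submitters' processing notes name TopHat, Cufflinks, Subread and DESeq2, without versions or roles, and the builds GRCm38 and mm10. TPM keep no read numbers, so the depth is unknown, no counting interval was computed, errors come from the spread between libraries, and the DESeq2 step of the authors was not repeated. Groups were taken from the genotype labels. No 2 of the 8 libraries held identical values (0 of 28 pairs).

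The values were left on the authors' scaling and analysed as log2(TPM + 1) by limma 3.58.1 under R 4.3.3 (lmFit, then eBayes with an intensity trend). Differences and fold changes are on that scale, which understates changes of low genes. Testing covered the 14964 genes that reached TPM 1 in 4 or more libraries (14794 without H3), and p-values were adjusted by Benjamini-Hochberg, with 0.05 as the threshold. Exact two-sided permutation tests compared the absolute difference in group means. The script was tested on simulated data. Gene coordinates are from GENCODE vM21 on GRCm38 and promoter sequences from the RefSeq table for GRCm38.p6, which has entries for 8 of the 9 members, not *S1pr1*.

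The genes named were the 9 members, *Foxf1*, *Pecam1*, every measured further S1P gene, the 2 genes of smallest unadjusted p per direction in the ceramide and effector lists, and the 5 (*S1pr1*) or 3 genes nearest to a member by Pearson r, with and without H3, except that 2 of the genes nearest to *S1pr2* are not reported here. *Rgs5*, *Myh11*, *Lyve1*, *Prox1*, *Gnai1* and *Gnai2* were named after their values were seen. Members, lists and rules were chosen with earlier results of these data known. Alternatives were other pseudocounts, filters and scalings, array weights, a fit without trend, other endothelial references and left-out libraries.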

Additional observations from a re-analysis of the deposited data

Results flagged for a closer look

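Of 38 groups of 4 values examined, 6 held a library that lay far from the other 3, where chance flags about 1 in 20 groups. Of these, 5 were the endFoxf1+/- library H3. *S1pr3* in H3 had a TPM of 0.151, below 1.51 to 1.73 in the other endFoxf1+/- libraries, and *Sphk1* in H3 had a TPM of 8.2, above 1.30 to 2.28. Relative to the endothelial markers, *Sgpl1* in H3 was at 0.87 log2 units against -3.45 to -3.10 in the others, and *Sgpp1* at 0.073 against -4.69 to -4.44. *S1pr1* made up 85.5% of the 3 receptors in H3 against 98.8% to 99.1%. Among controls, *Sphk2* in C1 had a TPM of 11.0, above 8.42 to 8.81 in the others.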

How the results depend on the processing

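No paired analysis was possible because the labels give the groups no shared replicate numbers. No member had an adjusted p under 0.05 in any setting, the lowest being 0.0627 for the level of *Sgpl1* with array weights, which gave H3 a weight of 0.0643. The count of genes with an adjusted p under 0.05 (0) was 148 with array weights, 2 without both H3 and H4, and 0 to 1 with a library left out. The count at an unadjusted p under 0.05 (836) was 519 at a minimum TPM of 5, 2866 with array weights, 1782 without both, and 416 (without C2) to 1589 (without H2) with a library left out. Relative to endothelial markers (367), it was 1119 with no filter, 173 at a minimum TPM of 5, 1826 with array weights, 1223 without both, 216 against *Pecam1* alone, 191 against a second list of 10 markers, and 135 (without C4) to 1723 (without H2) with a library left out. The causes were not tested.

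The sign of small and of large differences turned in some settings, among them the level of *Spns2* (-1.06) and the relative values of *Sphk1* (1.65), *Apom* (1.23) and *Sgpp1* (1.05). Relative *S1pr1* (0.01) was -0.023 at a pseudocount of 5, -0.12 with array weights, -0.20 without both H3 and H4, -0.15 against *Pecam1*, -0.21 against the second list, and -0.077 to 0.087 with a library left out. The *S1pr1* share difference (-3.45 points) was 0.0132 without both, and -4.63 to -0.0866 with a library left out. With array weights, levels were -0.16 for *Sphk1* and 0.012 for *Spns2*, and relative values -0.36 for *S1pr3*, -0.052 for *Sphk1* and -0.10 for *Apom*. Without both H3 and H4, levels were -0.14 for *Sphk1* and 0.12 for *Spns2*, and relative values -0.50 for *S1pr3*, -0.20 for *Sphk1* and -0.11 for *Sgpp1*. Relative *Spns2* was -0.020 against *Pecam1* and -0.081 against the second list, relative *S1pr3* was -0.11 at a pseudocount of 0.1, and the *Sgpp1* level was 0.036 with median ratio scaling. With a library left out, levels ran from -0.036 to 0.079 for *Sphk2*, -0.10 to 0.21 for *Apom* and -0.34 to 0.11 for *Sgpp1*, and relative values from -0.22 to 0.78 for *S1pr3* and -0.11 to 1.48 for *Sgpp1*. The level of *S1pr3*, which was not tested at a minimum TPM of 5, was lower in the other settings, at -1.33 to -0.29, with an exact permutation p of 0.0286 to 0.133. Relative *Sgpl1* was higher in every setting run, at 0.57 to 2.07, with an exact permutation p of 0.0286 to 0.171.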

Other observations

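The ratio of the exporter *Spns2* to the lyase *Sgpl1* was chosen after its values were seen, and is given as values. It was 5.44, 4.63, 4.89 and 4.31 in C1 to C4 and 2.73, 3.34, 0.225 and 3.26 in H1 to H4. *Spns2*, like the endothelial markers, was low in H3 and H4 (7.56% and 52.3% of its control mean, beside 5.36% and 55.9%). How many ratios of other gene pairs differ in this way was not computed. *Sgpl1* made up 56.3% to 64.0% of the transcripts of *Sgpl1* and *Sgpp1* in controls and 63.8% to 75.8% in endFoxf1+/- libraries, with H3 alone inside the control range. The ratio of *S1pr1* to *Spns2* was 3.21 to 5.67 in controls and 3.58 to 5.52 in endFoxf1+/- libraries.

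Lymphatic endothelium also releases S1P through *Spns2*, and 6 lymphatic endothelial markers summed to a TPM of 404 to 646 in controls and 69.99 to 736 in endFoxf1+/- libraries, the lowest value being H3. Most of this sum was *Lyve1*. The geometric mean of the 6 was 74.6% to 117% of the control mean in C1 to C4, and 118%, 93.4%, 21.7% and 206% in H1 to H4, and *Prox1*, the defining transcription factor, was at a TPM of 0.413 to 0.953 in controls and 0.710, 0.410, 0.0922 and 3.53 in H1 to H4. By sum and by *Lyve1* H2 was the highest, and by geometric mean and *Prox1* H4 was. The part of these markers in the *Spns2* values was not tested. The 6 epithelial markers summed to 5540 to 27136 in controls and 1336 to 20021 in endFoxf1+/- libraries, the 8 lymphocyte markers to 15 to 18.5 and 12 to 71.7, and the 4 erythroid markers to 53.9 to 198 and 26.3 to 99.8.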
